A study of Mus musculus with 4 samples.

Results

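The genes described are 10 enzymes that remove superoxide and peroxides: the superoxide dismutases Sod1, Sod2 and Sod3, catalase (Cat), the glutathione peroxidases Gpx1, Gpx3 and Gpx4, and the peroxiredoxins Prdx2, Prdx3 and Prdx4. They were taken by name, as all probe sets annotated to 1 of these gene symbols alone, which gave 24 of the 45101 probe sets of the array. The samples are livers of males of the inbred mouse strain C57BL/6J at 4, 8, 13 and 21 months of age. All mice ate a low-fat diet ad libitum. RNA from 6 livers was combined for each age and measured on 1 microarray, so there are 4 arrays and no replicates, and no p-value is given anywhere. A pool averages its mice, so the spread between animals is unknown. In whole liver, fewer cells of a type and less RNA per cell cannot be told apart.

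Superoxide is made by the respiratory chain and by NADPH oxidases, and the superoxide dismutases turn it into hydrogen peroxide. Catalase, found in peroxisomes, breaks hydrogen peroxide down to water and oxygen. Glutathione peroxidases reduce peroxides with glutathione, and peroxiredoxins do so with a reactive cysteine that thioredoxin restores. The liver is rich in catalase and in Gpx1, and it has a heavy load of peroxide from its peroxisomes and its cytochromes P450.

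Expression is given as deposited log2 values, where a difference of 1 is 2-fold. Where a gene had several probe sets, the one with the highest mean over the arrays stood for it, and the others are named by their probe set identifiers. Genes whose mean was at least 3.74, the median of the means of all probe sets, are called kept genes, and there were 11583 of them, all 10 enzymes included. The 4 arrays were alike, with medians from 3.73 to 3.76 and a Pearson's r of 0.994 to 0.996 between pairs of ages over all probe sets, which are not independent replicates. Albumin, transthyretin and apolipoprotein A1, defining products of hepatocytes, were between 13.1 and 13.5 at every age, as the label liver implies. A measure of agreement between probe sets on the same arrays comes from genes with at least 2 kept probe sets, of which there were 4796. It does not measure the spread between pools or between arrays. In the 6 pairs of ages, the difference given by the 2 brightest probe sets of such a gene disagreed by a median of 0.11 to 0.13, with a 90th percentile of 0.32 to 0.35. Differences near 0.1 between ages are therefore within the disagreement of probe sets for 1 gene.

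Most of the 10 enzymes differed little between ages, and 1 of them, Gpx3, the glutathione peroxidase secreted into plasma, was past 1.5-fold. At 8 vs 4 months none of the 10 was at least 1.5-fold higher or lower, where 0.855% of all kept genes were. At 13 vs 4 months 1 was, against 1.3% of all genes, and at 21 vs 4 months none, against 2.52%. These comparisons share the 4-month array. At 13 vs 8 months the count was 1 (1.08% of all genes), at 21 vs 13 months 0 (1.93%) and at 21 vs 8 months 1 (3.36%), and the gene was Gpx3 each time. The count at 21 vs 8 months was 0 with quantile normalization and with cyclic loess, where Gpx3 was at 0.54 and 0.57. With so few members, 1 gene of 10 past the size is a statement about Gpx3 and not about the group.

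The smaller size of 1.2-fold added Sod3, the extracellular superoxide dismutase. At 8 vs 4 months none of the 10 enzymes reached it, where 10.7% of all genes did. The count was 1 at 13 vs 4 months (11.3% of all genes), 2 at 21 vs 4 months (14.5%), 1 at 13 vs 8 months (11.4%), 0 at 21 vs 13 months (15.5%) and 2 at 21 vs 8 months (18.9%). By the probe set that stood for it, no enzyme was 1.2-fold lower in any of the 6 pairs of ages. The median difference of the 10 was -0.035 at 8 vs 4 months, 0.02 at 13 vs 4 months and 0.04 at 21 vs 4 months, beside medians over all genes of 0.00, 0.01 and 0.01.

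**Figure D1:**
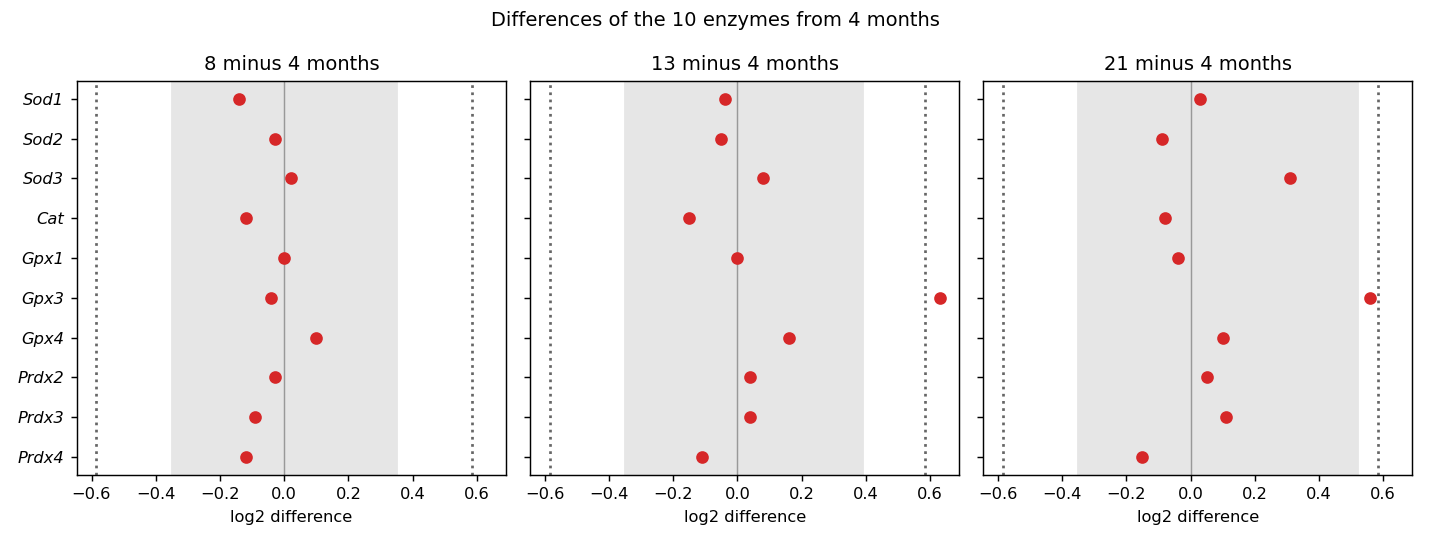
Log2 difference (horizontal axis) of each of the 10 enzymes (rows) at 8, 13 and 21 months minus 4 months, 1 array per age. Grey marks the middle 95% of all 11583 genes and dotted lines mark 1.5-fold. Gpx3 lies at 0.63 at 13 months, outside the grey band, and at 0.56 at 21 months, while Sod3 at 0.31 at 21 months lies inside it.

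Gpx3 is a selenoprotein that is secreted and reduces peroxides in plasma, made in large amounts by the kidney. In liver it was at 6.40, 6.36, 7.03 and 6.96 at 4, 8, 13 and 21 months, measured by a single probe set. The ages fall into a higher pair, 13 and 21 months, and a lower pair, 4 and 8 months, with differences of -0.07 at 21 vs 13 months and -0.04 at 8 vs 4 months. Gpx3 at 13 months was 1.59-fold its 8-month level and 1.55-fold its 4-month level. At 21 months it was 1.52-fold its 8-month level and 1.47-fold its 4-month level. Of the 11583 genes, 72 had a larger difference in either direction than the 0.67 of Gpx3 at 13 vs 8 months, and 310 a larger one than its 0.56 at 21 vs 4 months. No second probe set of Gpx3 could be set beside it.

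Markers of tissues rich in Gpx3 were measured beside it. The kidney tubule genes Slc34a1, Umod and Lrp2 lay between 1.82 and 2.96 at all ages, below the filter on level. The other kidney marker, Kap, was at 3.92, 4.04, 4.22 and 3.94. The fat cell hormone gene Adipoq lay between 2.15 and 2.44, and Retn was at 4.62, 4.55, 4.40 and 4.48. Like Gpx3, Kap, Lrp2 and Adipoq were highest at 13 months, by 0.30, 0.23 and 0.04 over 4 months. Lrp2 and Adipoq both lay below the filter on level. The remaining markers were not highest at 13 months, as Slc34a1 was highest at 8, Umod at 21 and Retn at 4 months. At 21 months Kap was 0.02 over its 4-month level, and Lrp2 and Adipoq were lower than at 4 months. The 8 macrophage markers had a median difference of 0.05 at 13 vs 4 months and 0.79 at 21 vs 4 months. Gpx3 differed by 0.63 and 0.56 in these pairs of ages. At 13 vs 8 months all 8 markers were higher, by a median of 0.395, and Gpx3 was 0.67 higher. The part of these cells in the Gpx3 level was not tested.

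The promoter of Gpx3 is shown because Gpx3 had the largest difference of the 10. The RefSeq gene table for build GRCm38.p6 gives the 250 bases before its start at chr11:54902604-54902853 on the plus strand. Capitals mark the GC box GGGCGG, the letters bound by Sp1 family factors.

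Gpx3: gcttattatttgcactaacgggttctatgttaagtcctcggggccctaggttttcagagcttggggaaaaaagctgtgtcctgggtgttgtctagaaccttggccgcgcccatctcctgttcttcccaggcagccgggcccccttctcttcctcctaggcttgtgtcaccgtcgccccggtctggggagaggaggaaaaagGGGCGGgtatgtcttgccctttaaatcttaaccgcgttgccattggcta

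Promoter windows of 9 of the 10 enzymes, 12 in all because Gpx4 has several starts, were searched on both strands. The windows run from 250 bases before to 50 bases after a start. The GC box was found for all 9 enzymes, in 11 of the 12 windows, and in 35.7% of the 32851 windows of all genes. The antioxidant response element TGACNNNGC, which NRF2 binds, was found in 1 of the 12 windows, that of Sod1, and in 12.4% of all windows. TATAAA was found in the windows of Sod1 and Prdx3 and in 13.6% of all windows. The GC box was the only one of the 3 motifs in the window of Gpx3. A match is a match of letters only.

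The pattern of Gpx3 was compared with that of every other kept gene, as the mean absolute distance between the 4 values after subtracting each gene's own mean. The nearest was Gstt3, a glutathione S-transferase, at 7.79, 7.68, 8.21 and 8.25 and a distance of 0.06. Next were the cyclic AMP phosphodiesterase gene Pde4b, at 5.80, 5.98, 6.60 and 6.46, and Rbm43, at 4.88, 4.82, 5.32 and 5.32, both 0.07 away. A second kept probe set of Pde4b (1422473_at) gave 5.37, 5.35, 5.92 and 5.62, a similar course with a smaller difference at 21 months. The remaining kept probe set of Pde4b (1442700_at) did not follow it, at 4.66, 4.61, 4.72 and 4.89. Likeness over 4 arrays is a description of these arrays.

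**Figure D2:**
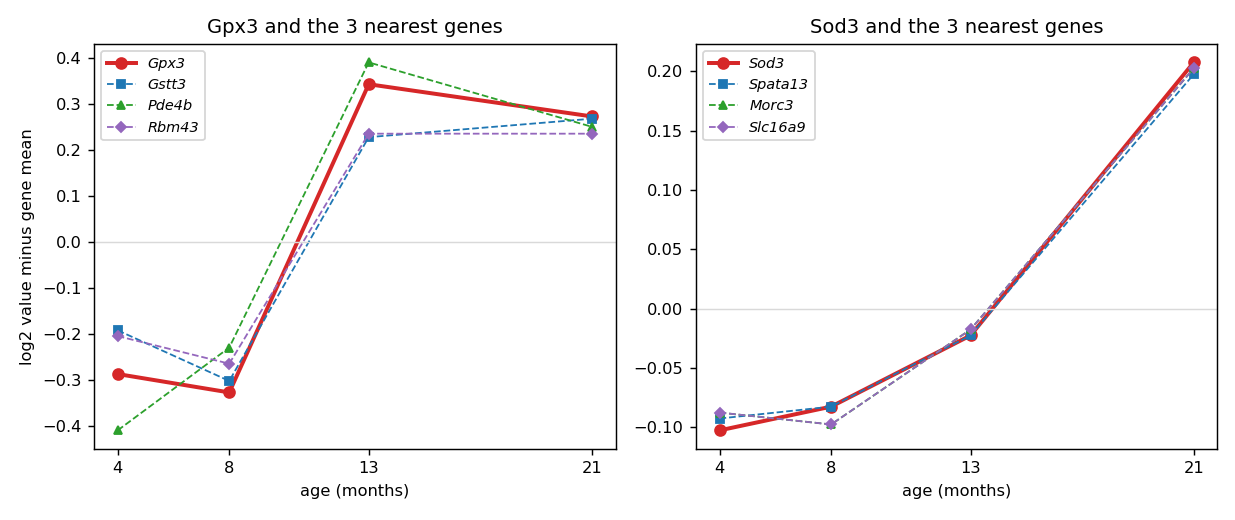
Log2 value minus the gene's own mean (vertical axes, of different scale) by age in months for Gpx3 (left) and Sod3 (right), each with the 3 genes nearest to it over the 4 arrays. Gpx3, Gstt3, Pde4b and Rbm43 are higher at 13 and 21 than at 4 and 8 months, while Sod3 and its 3 nearest genes are highest at 21 months.

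The 3 superoxide dismutases differ by place. Sod3 is secreted and bound to the matrix around cells, above all in vessel walls. It was at 6.36, 6.38, 6.44 and 6.67 at the 4 ages, higher at each step, with most of the difference at the last. At 21 months it was 1.24-fold its 4-month level, a difference of 0.31, and 1162 of 11583 genes (10.03%) had a larger difference. Its second probe set was at 5.30 at 4, 8 and 13 months and at 5.47 at 21 months, so both probe sets were highest at 21 months, by 0.31 and 0.17 over 4 months. The genes with the course nearest to Sod3 were Spata13, Morc3 and Slc16a9, 0.005 to 0.01 away, with differences of 0.29 each at 21 vs 4 months. Their other kept probe sets gave -0.14 and 0.38 for Spata13, 0.21 for Morc3 and 0.46 for Slc16a9, so the likeness holds for the probe sets compared.

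Markers of cells that could hold Sod3 moved in part with it. All 8 macrophage markers were higher at 21 than at 4 months, by 0.51 to 1.39. At 8 vs 4 months they differed by -0.48 to -0.19, and Sod3 by 0.02. Among stellate and smooth muscle markers the matrix gene Dcn was at 9.72, 9.70, 9.88 and 10.16. Acta2, Des, Lrat and Reln were within 0.20 of their 4-month level at 21 months. At 8 vs 4 months Acta2 differed by 0.64, Lrat by 0.32, Des by 0.10 and Reln by 0.05. The smooth muscle myosin gene Myh11 lay below the filter, from 3.24 to 3.57. The 5 endothelial markers differed by -0.03 to 0.16 between 21 and 4 months. The part of these cells in the Sod3 level was not tested.

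Sod2, the manganese enzyme of the mitochondrial matrix, was at 10.47, 10.44, 10.42 and 10.38. It was lower at each step, but by 0.09 in all at 21 vs 4 months. Another probe set (1454976_at) was lower at each step as well, at 7.09, 7.03, 7.0 and 6.93. All 4 probe sets of Sod2 were lower at 21 than at 4 months, by 0.07 to 0.16. The second brightest (1417193_at) was not lower at each step. It was at 9.97, 9.89, 10.03 and 9.90, highest at 13 months. So was 1417194_at, near the filter, at 4.02, 4.08, 4.36 and 3.89. By the probe set that stood for each gene, values were in 1 direction at every step for 2 of 10 enzymes, Sod2 and Sod3. This held for 7.5% of all genes.

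Sod1, the copper and zinc enzyme of the cytosol, was at 10.86, 10.72, 10.82 and 10.89 by its brightest probe set and at 9.26, 9.26, 9.34 and 9.16 by the next. At 21 vs 4 months these differed by 0.03 and -0.10, both within the disagreement of probe sets. A dimmer probe set of Sod1 (1440222_at) did not follow them. It was at 6.28, 6.13, 5.95 and 5.74, lower at every step, with a difference of -0.54 at 21 vs 4 months. Another (1435304_at) was at 4.81, 5.25, 4.77 and 4.98, highest at 8 months. The fifth probe set was at 1.86 to 1.87, near the low end of the array. The probe sets of Sod1 thus gave different courses. At 21 vs 4 months 1440222_at stood apart, and the other 4 gave differences from -0.10 to 0.17.

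**Figure D3:**
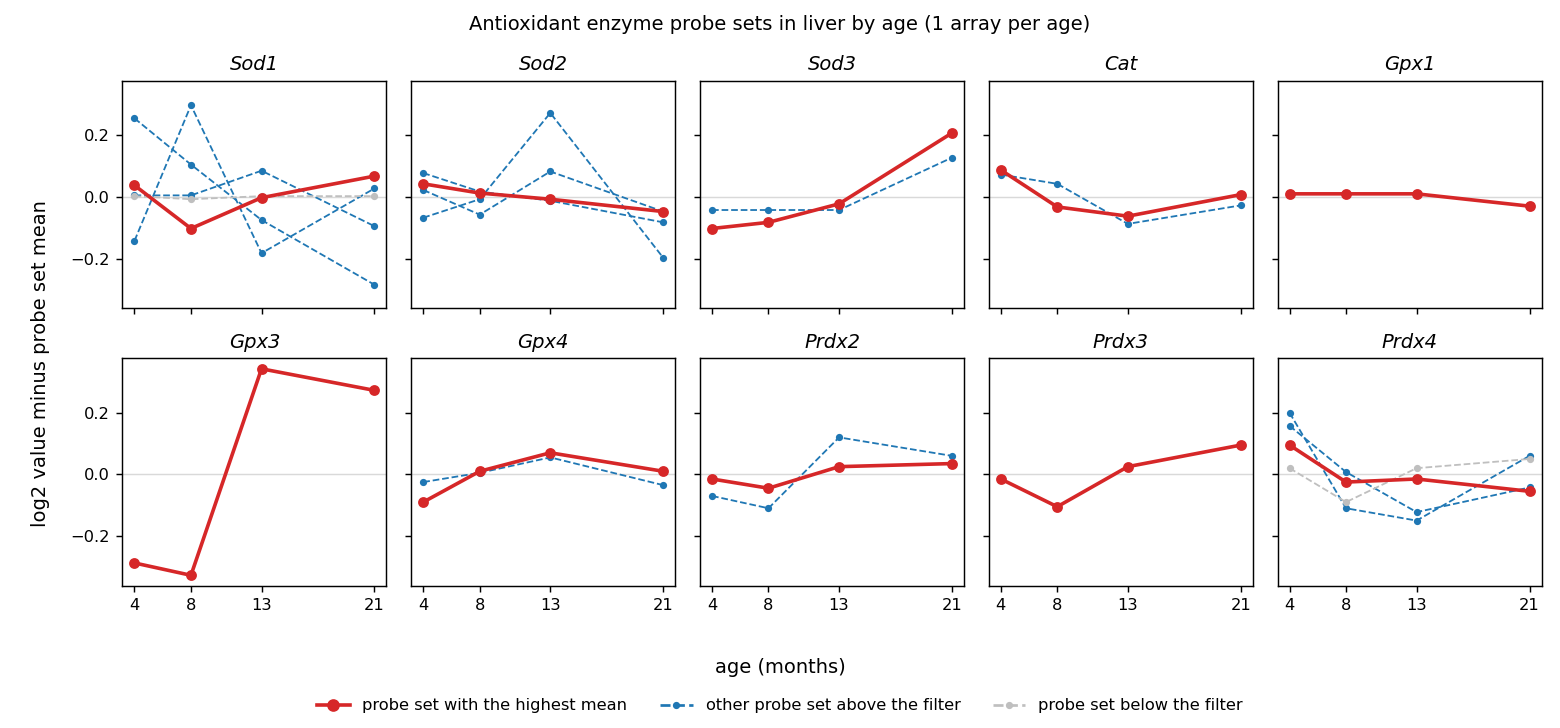
Log2 value minus the probe set's own mean (vertical axis) by age in months for all 24 probe sets, 1 panel per gene and 1 array per age. The solid line is the probe set with the highest mean, dashed lines are the others. Gpx3 spans 0.67 and Gpx1 0.04, the probe sets of Cat and Sod3 run alike, and those of Sod1 do not.

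Catalase was slightly lower at each later age than at 4 months by both of its probe sets. The brighter was at 11.97, 11.85, 11.82 and 11.89 and the other at 11.76, 11.73, 11.60 and 11.66. Both were lowest at 13 months, by 0.15 and 0.16 under 4 months, or 0.90-fold for the brighter. A difference of this size is close to the median disagreement of probe sets, and 69.8% of all genes had a wider range over the 4 ages.

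Gpx1, the abundant glutathione peroxidase of cytosol and mitochondria, was the most even of the 10. It was at 12.52 at 4, 8 and 13 months and at 12.48 at 21 months, and 98.0% of all genes had a wider range. Gpx4, which reduces lipid peroxides in membranes and so holds back ferroptosis, was at 10.63, 10.73, 10.79 and 10.73, and its second probe set at 10.24, 10.27, 10.32 and 10.23. Both probe sets of Gpx4 were highest at 13 months, by 0.16 and 0.08 over 4 months. At 21 vs 4 months they gave 0.10 and -0.01.

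Gpx1, Gpx3 and Gpx4 are selenoproteins, and genes that supply selenium and insert selenocysteine were therefore measured beside them. Their list also held further selenoproteins, such as Dio1 and Msrb1, and Selenbp1. None of 15 kept genes of this list was past 1.5-fold in any of the 6 pairs of ages, where 0.855% to 3.36% of all genes were. With shares this small, a count of 0 in so short a list says little about the list. The median of the list was 0.00 at 13 vs 4 months and 0.01 at 21 vs 4 months. Selenop, the selenium carrier of plasma made by hepatocytes, was at 12.86, 12.87, 12.86 and 12.87. The selenophosphate synthetase gene Sephs2 was at 10.33, 10.43, 10.44 and 10.42. The widest difference from 4 months was that of Selenbp1, a selenium-binding protein, at 11.02, 10.82, 10.52 and 10.55. Gpx3 and Selenbp1 thus both stood apart from their 4-month level at 13 and 21 months, in opposite directions. At 8 vs 4 months Selenbp1 already differed by -0.20, and Gpx3 by -0.04. The other probe set of Selenbp1 is not shown here.

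Among the peroxiredoxins, Prdx3, the enzyme of mitochondria, was at 9.47, 9.38, 9.51 and 9.58 by its single probe set. It was lowest at 8 months, and the difference at 21 vs 8 months was 0.20, or 1.15-fold. Prdx2, a cytosolic enzyme that is abundant in red blood cells, was at 9.01, 8.98, 9.05 and 9.06. Its second probe set was at 6.88, 6.84, 7.07 and 7.01, so both were higher at 13 and 21 than at 4 and 8 months, by at most 0.23. The erythroid gene Alas2, also used for heme synthesis, was at 7.91, 7.98, 7.88 and 7.79, and Hba-a1, Slc4a1 and Epb42 lay below the filter, from 2.46 to 2.91.

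Prdx4 works in the endoplasmic reticulum, where it uses peroxide made during disulfide formation, and is also secreted. It was at 9.59, 9.47, 9.48 and 9.44, lower by 0.11 to 0.15 at each later age than at 4 months. Its other kept probe sets were at 7.48, 7.33, 7.20 and 7.28 and at 6.98, 6.67, 6.63 and 6.84. All 3 were thus highest at 4 months, and at 13 months they lay 0.11, 0.28 and 0.35 under it. The remaining probe set was at 1.80 to 1.94 and carries little information. Among 11 genes of oxidative folding the sulfhydryl oxidase gene Ero1a was at 7.17, 6.90, 6.80 and 7.10. It was lowest at 13 months, like the 2 dimmer kept probe sets of Prdx4 but not its brightest. Ero1a had the lowest difference of the 11 at 13 vs 4 months, -0.37. In that pair 7 of the 11 were above 0, and the median was 0.01. The other probe sets of Ero1a are not shown here. None of the 11 was past 1.5-fold in any pair of ages (0.855% to 3.36% of all genes). Plasma cell genes were measured because secretory cells hold much Prdx4. Jchain at 21 months was 1.58 over its 4-month level and Ighm 2.84, although the other kept probe sets of Ighm differed by 0.00 to 2.28. The other kept plasma cell markers, Mzb1 and Sdc1, were 0.06 and 0.35 over theirs. Their part in the Prdx4 level was not tested.

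Further members of these families were few on the kept list. Gpx2, the peroxidase of gut lining, was at 4.92, 4.92, 4.95 and 4.99. Gpx6 and Gpx7 lay close to the filter, at 3.73, 3.85, 4.07 and 4.09 and at 3.86, 3.84, 3.71 and 3.61. Gpx5 and Gpx8 were below it. None of the 5 was past 1.5-fold at 8, 13 or 21 months against 4 months (0.855% to 2.52% of all kept genes). Prdx1, Prdx5 and Prdx6 were not analysed here.

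At 21 vs 4 months some genes that make superoxide differed more than any of the 10 enzymes. Past 1.5-fold were 3 of the 19 kept genes of this list, all higher, beside 2.52% of all genes, and the list median was 0.06. All 3 were subunits of the NADPH oxidase of phagocytes. Cybb, its catalytic subunit, was at 5.86, 5.73, 6.10 and 6.96, Cyba at 6.31, 6.21, 6.56 and 7.10, and Ncf4 at 4.64, 4.58, 4.61 and 5.26. The differences at 21 vs 4 months were 1.10, 0.79 and 0.62, with 1.33 and 0.24 by the other probe sets of Cybb. Rac2, a GTPase of the same complex, was higher by 0.56 and Ncf1 by 0.25. The macrophage markers named above differed by a median of 0.79 in the same comparison, and the neutrophil genes S100a8 and S100a9 by 1.35 and 1.45. The other kept neutrophil markers were Ngp, which differed by 0.19, and Elane, which differed by -0.11.

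Apart from Cybb, Cyba, Ncf4 and Rac2, none of the kept sources of superoxide and peroxide was past 1.5-fold in any pair of ages. The cytochrome P450 gene Cyp2e1 was at 12.95, 12.96, 12.99 and 12.94, urate oxidase (Uox) at 11.70, 11.74, 11.77 and 11.75, and the glycolate oxidase gene Hao1 at 10.33, 10.29, 10.06 and 10.23. Nox4, the NADPH oxidase of hepatocytes and stellate cells, was at 8.12, 8.15, 8.25 and 8.04. Xdh, xanthine dehydrogenase, was 0.32 higher at 21 than at 4 months and the aldehyde oxidase gene Aox1 0.35 lower. Maoa, a mitochondrial monoamine oxidase that forms peroxide, was at 6.31, 6.74, 6.68 and 6.61, the lowest value being that at 4 months. Of 13 kept genes of peroxisome assembly, the organelle that holds catalase, none was past 1.5-fold against 4 months. The share of all genes was 0.855% to 2.52%. The peroxisome division gene Pex11a was at 10.04, 10.38, 10.20 and 9.75, which is -0.63 at 21 vs 8 months.

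**Figure D4:**
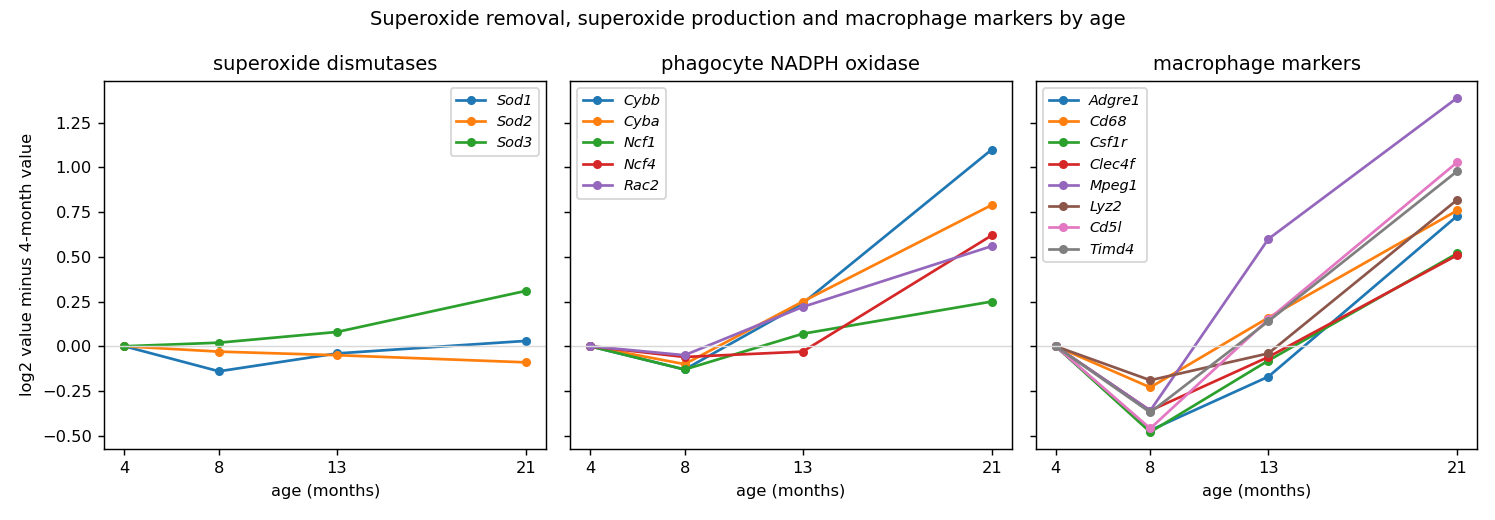
Log2 value minus the 4-month value (vertical axis, shared) by age in months for 3 superoxide dismutases, 5 genes of the phagocyte NADPH oxidase and 8 macrophage markers, 1 array per age. At 21 months the dismutases lie between -0.09 and 0.31, the oxidase genes between 0.25 and 1.10 and the macrophage markers between 0.51 and 1.39.

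The systems that feed the peroxidases were also described. Of 17 kept genes of thioredoxin and glutathione recycling none was past 1.5-fold against 4 months at any age (0.855% to 2.52% of all genes). The medians of the 17 were 0.00, 0.07 and -0.01 at 8, 13 and 21 months. Txn1, the thioredoxin that restores cytosolic peroxiredoxins, was at 10.80, 10.80, 10.88 and 11.01. Srxn1, the sulfiredoxin that repairs overoxidised peroxiredoxins, was at 6.85, 6.89, 7.05 and 7.10, higher at each step. At 21 vs 8 months 2 of the 17 were at least 1.5-fold higher, where 3.36% of all genes were past that size in either direction. Pgd, an NADPH-forming enzyme of the pentose phosphate pathway, was 0.71 higher. Glrx3 was 0.70 higher, with an 8-month level of 3.63 under the filter. The call for Pgd rests on 1 of its 4 kept probe sets, as the others gave 0.36, 0.46 and 0.39. Of 7 glutathione synthesis and turnover genes none was past 1.5-fold against 4 months (0.855% to 2.52% of all genes). The rate-limiting pair Gclc and Gclm was at 10.71, 10.58, 10.58 and 10.60 and at 9.75, 9.47, 9.73 and 9.67. Chac1, which degrades glutathione, was 0.61 higher at 21 than at 8 months.

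Metals reach the dismutases through dedicated carriers. Ccs, the copper chaperone of Sod1, was at 9.78, 9.80, 9.81 and 9.70. None of 8 kept genes of metal supply was past 1.5-fold in any pair of ages (0.855% to 3.36% of all genes). Slc39a14, a carrier of zinc, iron and manganese, was 0.40 higher at 21 than at 4 months. Of 12 kept regulators of antioxidant genes 0 were past 1.5-fold in each pair of ages, where 0.855% to 3.36% of all genes were. Ppargc1a, a coactivator of mitochondrial genes, came nearest, at 6.08, 5.50, 5.93 and 5.83.

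NRF2 is the main activator of antioxidant genes, and single genes of its target list differed in both directions. Of 19 kept genes 1 was at least 1.5-fold higher and 1 lower at 8 vs 4 months (0.855% of all genes in either direction). At 13 vs 4 months 1 was higher (1.3%) and at 21 vs 4 months 1 was higher (2.52%). These were different genes, and counts this small are statements about single genes. At 8 months Cbr3, a carbonyl reductase, was 0.60 higher and the glutathione transferase Gstm3 0.68 lower. At 13 months the transporter Abcc4 was 0.75 higher, and at 21 months the growth inhibitor Osgin1 0.59. Nqo1, a quinone reductase and common readout of NRF2, was at 5.23, 5.40, 5.65 and 5.74, higher at every step with 0.51 in all. The NRF2 gene itself, Nfe2l2, was at 8.54, 8.36, 8.50 and 8.50, and Hmox1, heme oxygenase, at 6.14, 5.96, 5.84 and 6.50. At 21 vs 13 months Hmox1 and Gstm3 were 0.66 and 0.59 higher, and at 21 vs 8 months Gstm3 was 0.93 higher, with 0.92 by its second probe set. Of the NRF2 list Gclc, Gclm, Slc7a11, Srxn1 and Txnrd1 also stand in another list.

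**Figure D5:**
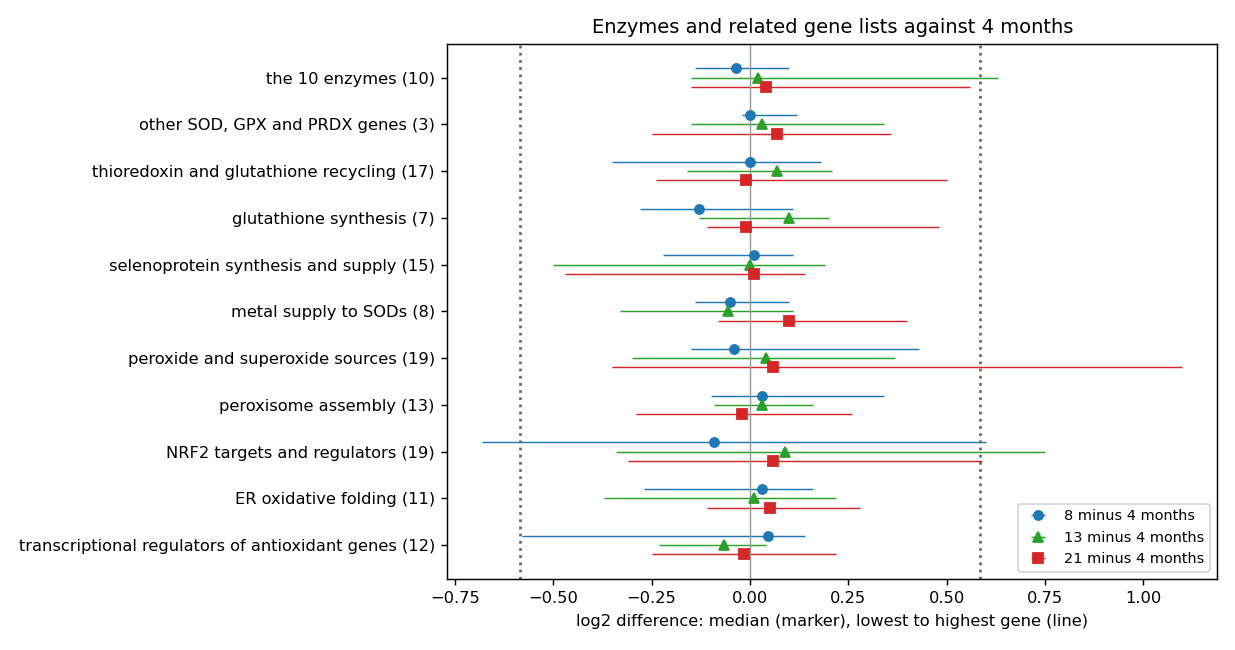
Log2 differences (horizontal axis) at 8, 13 and 21 minus 4 months for the 10 enzymes and the related gene lists, with the number of kept genes in brackets. Markers are medians, lines run from the lowest to the highest gene, and dotted lines mark 1.5-fold. All medians lie between -0.13 and 0.10, and the longest line to the right is Cybb at 1.10 among the sources of superoxide and peroxide.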

How the data were processed

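The deposited values are log2 expression values per probe set, made by the authors with RMA per the submitters' processing notes, a method that subtracts background, brings the distributions of the arrays together and combines the probes of a set. A change shared by most genes at 1 age would therefore not show. Its version and which arrays it took together were not given in the sources used here. No detection calls were used. The number of arrays limits the precision. Groups were taken from the labelled age.

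Probe sets were named by the platform annotation, with symbols checked by gene identifier against RefSeq (34754 of 34958 with 1 symbol matched, 0 changed). Differences were counted by size, 1.5-fold, as no test between single arrays is possible. All 10 enzymes with every probe set, list genes past 1.5-fold and the 3 nearest profiles of members with a range of at least 1.2-fold were to be named. Other list genes were chosen after their values were seen. The members and lists were chosen with earlier results of these data known. Alternatives were other probe set rules, filters, scalings and sizes. Counting was tested on simulated data. Promoters are from RefSeq, GRCm38.p6. Quantile and cyclic loess scaling used limma 3.58.1 in R 4.3.3. Other steps used pandas 2.3.3 and numpy 2.4.6 in Python 3.11.15, with matplotlib 3.10.9 for plots.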

Additional observations from a re-analysis of the deposited data

How the results depend on the processing

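In all, 42 medians of the 10 enzymes were recomputed with median centring, quantile normalization, cyclic loess, other filters and other probe set rules. With plain probe sets alone, medians and counts covered 8 enzymes, as Gpx4 and Prdx2 have no such probe set. None of the medians moved by as much as 0.13, the largest median disagreement between probe sets on the same arrays. This does not measure the missing replicate spread. Of 54 recomputed counts 47 kept to the reported value. The count at 21 vs 8 months was 0 in place of 1 with quantile normalization and with cyclic loess, where Gpx3 was at 0.54 and 0.57 in place of 0.60. With 1.2-fold the counts at 21 vs 4 and 21 vs 8 months were 2, and with 2-fold those at 13 vs 4, 13 vs 8 and 21 vs 8 months were 0. Sod1 at 21 vs 4 months was -0.10 with plain probe sets alone. Signs of differences within 0.11 of 0 turned with scaling for Sod1, Cat, Gpx1, Gpx4, Prdx2 and Prdx4 in at least 1 pair of ages. Those of Sod2, Sod3, Gpx3 and Prdx3 turned in none. Dim probe sets near the low end of the arrays can miss a difference.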
